A study of Homo sapiens with 24 samples.

Results

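The UGT2B androgen-glucuronidating enzymes were followed as 7 genes, UGT2B4, UGT2B7, UGT2B10, UGT2B11, UGT2B15, UGT2B17 and UGT2B28, chosen by name out of the 60675 genes in the count files. RNA-seq counts came from 24 libraries of 2 prostate cancer (PCa) cell lines, with 3 libraries in each of 8 conditions. LNCaP:C4-2 is a castration-resistant derivative of the androgen-sensitive LNCaP line, and 22Rv1 was derived from a relapsed PCa xenograft. Each line received a pool of non-targeting siRNAs (siSCR) or a pool of siRNAs against METTL3 (siMETTL3), the enzyme that writes most m6A marks on mRNA. After 48 h the siRNA was given again together with 1 nM R1881, a synthetic androgen, or the ethanol vehicle, for a further 72 h. All cells were kept in charcoal-stripped, phenol-red-free medium, so the vehicle cells were androgen-depleted, and each line is a single culture-adapted line. The labels do not say whether the 3 libraries of a condition came from separate cultures, so the p-values measure the spread between these libraries, which may be technical.

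UDP-glucuronosyltransferases of the UGT2B family sit in the membrane of the endoplasmic reticulum and attach glucuronic acid, taken from UDP-glucuronic acid, to small lipophilic molecules, which can then be exported. In prostate cells UGT2B15 and UGT2B17 conjugate dihydrotestosterone and its reduced metabolites androsterone and androstanediol, and glucuronidation removes these steroids from androgen signalling. UGT2B28 also acts on androgens and oestrogens, and UGT2B7 on many steroids, fatty acids and drugs. UGT2B4 is best known for bile acids, UGT2B10 for amines such as nicotine, and UGT2B11 for oxidised fatty acids, so the working name covers genes with differing substrates. The counts hold no measure of enzyme activity.

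All 7 genes lie in a cluster on chromosome 4 (GRCh38), from base 68537184 to base 69526014. Seen from the low-coordinate end, the start sites in the files' annotation follow in the order UGT2B17, UGT2B15, UGT2B10, UGT2B7, UGT2B11, UGT2B28 and UGT2B4. UGT2B10, UGT2B7 and UGT2B28 are on the plus strand and the other 4 on the minus strand. UGT2B7 lies within the span of UGT2B11, on the other strand. These genes are close paralogs, and the authors' counts leave out any fragment with more than 1 possible place or gene. UGT2B15 and UGT2B17 share 114 annotated exonic bases, UGT2B28 shares 498 with the pseudogene UGT2B25P, and UGT2B11 shares 418 with the antisense gene ENSG00000250696. Counting did not use strand, so fragments in that last stretch (16.9% of the exonic bases of UGT2B11) could not be given to either gene by strand. Within this stretch of chromosome 4, the exonic windows of 75 bases that occurred once made up 76.6% for UGT2B28, 82.7% for UGT2B11, 84.9% for UGT2B17 and 99.9% for UGT2B4. For windows of 150 bases it was 88% for UGT2B28 and 98.2% to 100% for the other members. The share of reads lost to paralogs may therefore differ between members and was not measured. Levels set side by side are given per kilobase (kb) of exon with that limit.

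Library totals ran from 15716224 to 21306019 counts, with mitochondrially encoded genes taking between 3.93% and 9.73%. METTL3 was lower in the siMETTL3 libraries of every condition, at 17.5 to 25.3 counts per 1000000 (CPM) against 26.5 to 51.6 CPM in the siSCR libraries (log2 fold change -0.57 to -1.18), which is a partial knockdown. With R1881 the androgen-induced gene FKBP5 rose in both lines (log2 fold change 3.49 in LNCaP:C4-2 and 3.33 in 22Rv1), whereas KLK3 rose by 4.08 in LNCaP:C4-2 and held 6.58 against 6.57 CPM in 22Rv1. The 9 luminal prostate markers summed to 2740 to 4010 CPM in LNCaP:C4-2 and 1350 to 1530 CPM in 22Rv1. In LNCaP:C4-2, siSCR R1881 replicate 1 and siMETTL3 vehicle replicate 1 were the least like their own condition (mean correlation 0.99 and 0.986, against 0.991 to 0.996 for the other 22 libraries).

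The first comparison asked which members responded to androgen under control siRNA. In LNCaP:C4-2, R1881 lowered UGT2B15, UGT2B17, UGT2B10, UGT2B7 and UGT2B4 and raised UGT2B11 and UGT2B28. In 22Rv1 it lowered UGT2B15, UGT2B17, UGT2B10 and UGT2B7 and raised UGT2B11, UGT2B28 and UGT2B4. A gene was called when its edgeR quasi-likelihood p, adjusted over all genes tested, was under 0.05 and its change at least 1.5-fold. Of all genes tested in LNCaP:C4-2, 7.72% were called lower and 7.39% higher, beside 5 and 2 of the 7 members. In 22Rv1 the corresponding shares were 9.64% and 4.19%, beside 4 and 3 of the 7 members. In bulk RNA, fewer cells that express a gene and less RNA per cell cannot be told apart.

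**Figure D1:**
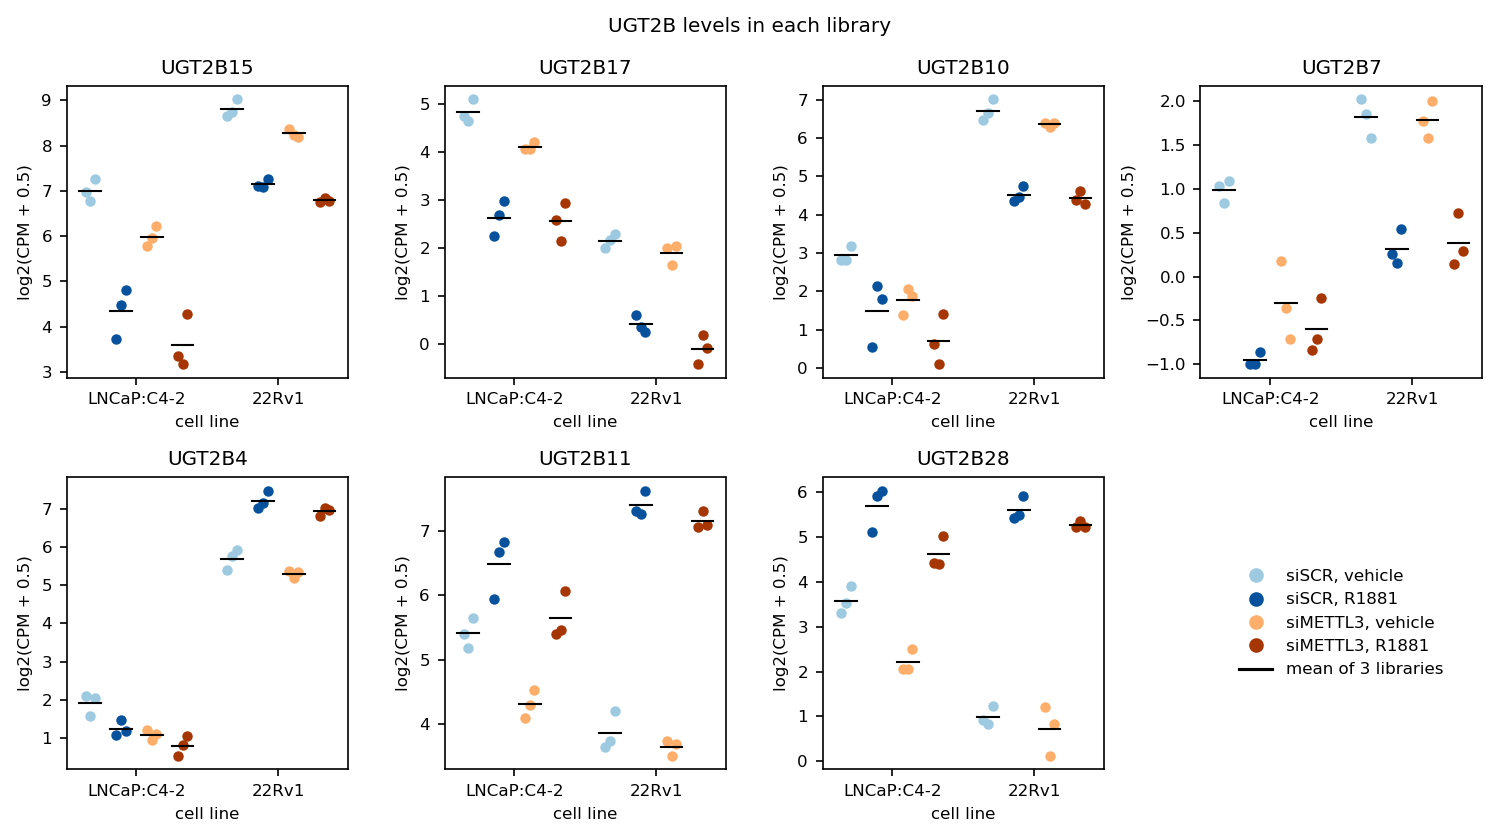
Levels of the 7 UGT2B genes in each of the 24 libraries, as log2(CPM + 0.5) on the vertical axis, with 1 panel per gene, LNCaP:C4-2 at the left and 22Rv1 at the right of each, points for libraries, colours for siRNA and treatment, and black lines for the means of 3 libraries. Under siSCR, UGT2B15, UGT2B17, UGT2B10 and UGT2B7 drop with R1881, UGT2B11 and UGT2B28 climb, and UGT2B4 sits at 1.6 to 3.8 CPM in the siSCR libraries of LNCaP:C4-2 and at 41.9 to 179 CPM in those of 22Rv1.

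UGT2B15, the main conjugating enzyme for androstanediol in the prostate, was the most abundant member in vehicle in both lines. Its LNCaP:C4-2 siSCR libraries held 126, 109 and 153 CPM in vehicle and 12.8, 21.9 and 27.5 CPM with R1881, so the groups did not overlap. The fall was 6.26-fold (log2 fold change -2.65, SE 0.28, edgeR adjusted p 5.03e-06). In 22Rv1, UGT2B15 went from 400.0, 428 and 520.0 CPM to 138, 136 and 152 CPM. This was a 3.19-fold fall (log2 fold change -1.67, SE 0.08, edgeR adjusted p 9.04e-13), again without overlap.

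UGT2B17, the close relative of UGT2B15 that conjugates testosterone and dihydrotestosterone, fell in both lines. In LNCaP:C4-2 siSCR it held 26.3, 24.3 and 33.6 CPM in vehicle and 4.21, 5.88 and 7.38 CPM with R1881 (4.83-fold lower; log2 fold change -2.27, SE 0.22, edgeR adjusted p 1.43e-06). The 22Rv1 libraries held far less of it, at 3.5, 3.95 and 4.35 CPM in vehicle and 1.02, 0.778 and 0.692 CPM with R1881 (4.74-fold lower; log2 fold change -2.25, SE 0.26, edgeR adjusted p 6.23e-07). Vehicle and R1881 libraries did not overlap in either line. In 22Rv1, UGT2B17 counts were 0.225% to 1.24% of the UGT2B15 counts of the same library, against 20.8% to 56% in LNCaP:C4-2. Whether reads of UGT2B15 were assigned to UGT2B17 was not tested. Exonic windows of 150 bases that occurred once made up 99.2% for both genes, and those of 75 bases 85.2% for UGT2B15 and 84.9% for UGT2B17.

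UGT2B10 and UGT2B7 completed the group that fell in both lines. UGT2B10 libraries of 22Rv1 held 88.8, 101 and 129 CPM in vehicle and 20, 21.6 and 26.2 CPM with R1881 (4.74-fold lower; log2 fold change -2.24, SE 0.12, edgeR adjusted p 3.74e-12). In LNCaP:C4-2 the same gene went from 6.55, 6.5 and 8.62 CPM to 0.948, 3.88 and 3.0 CPM (2.78-fold lower; edgeR adjusted p 0.0124), with replicate 1 well under the other R1881 libraries. UGT2B7 was scarce throughout, and in LNCaP:C4-2 its raw counts were 28, 24 and 28 in vehicle and 0, 0 and 1 with R1881. Set against a floor of 3 counts per library, UGT2B7 was at least 8.4-fold lower (edgeR adjusted p 9.08e-05). In 22Rv1 it went from 69, 58 and 46 counts to 13, 11 and 18 counts, a 4.04-fold fall (edgeR adjusted p 9.39e-06).

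UGT2B11 and UGT2B28, which neighbour each other in the cluster, rose in both lines and rose more in 22Rv1. UGT2B28 held 9.36, 11 and 14.6 CPM in LNCaP:C4-2 vehicle and 33.9, 59.4 and 64.8 CPM with R1881 (4.51-fold higher; log2 fold change 2.17, SE 0.25, edgeR adjusted p 1.05e-05). In 22Rv1 it went from 1.39, 1.28 and 1.85 CPM to 42.7, 44.3 and 59.4 CPM (32-fold higher; log2 fold change 5.00, SE 0.20, edgeR adjusted p 1.96e-14). Its R1881 levels thus overlapped between the lines although the vehicle levels did not.

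UGT2B11 libraries of LNCaP:C4-2 held 41.6, 35.9 and 49.8 CPM in vehicle and 60.8, 101 and 113 CPM with R1881 (2.15-fold higher; log2 fold change 1.11, SE 0.22, edgeR adjusted p 0.00184). In 22Rv1, UGT2B11 went from 12, 12.9 and 18 CPM to 158, 153 and 196 CPM (11.7-fold higher; log2 fold change 3.55, SE 0.13, edgeR adjusted p 3.8e-15). The groups did not overlap in either line. Its antisense partner ENSG00000250696 rose as well in 22Rv1 (log2 fold change 3.94, SE 0.31). Fragments that fit both genes were left out of the counts, and what that loss did to either value was not tested.

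UGT2B4 moved in opposite directions. In 22Rv1 it held 41.9, 54.7 and 60.1 CPM in vehicle and 130, 142 and 179 CPM with R1881 (2.86-fold higher; log2 fold change 1.52, SE 0.12, edgeR adjusted p 1.08e-09). In LNCaP:C4-2 its level was low, at 69, 46 and 62 counts in vehicle and 27, 35 and 33 counts with R1881 (1.77-fold lower; log2 fold change -0.83, SE 0.26, edgeR adjusted p 0.0272). The LNCaP:C4-2 call for UGT2B4 was lost without siSCR vehicle replicate 1 or 3 or without siSCR R1881 replicate 1 or 3 (edgeR adjusted p 0.0825 to 0.117), whereas the direction held. UGT2B4 shares no exonic base with another annotated gene.

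**Figure D2:**
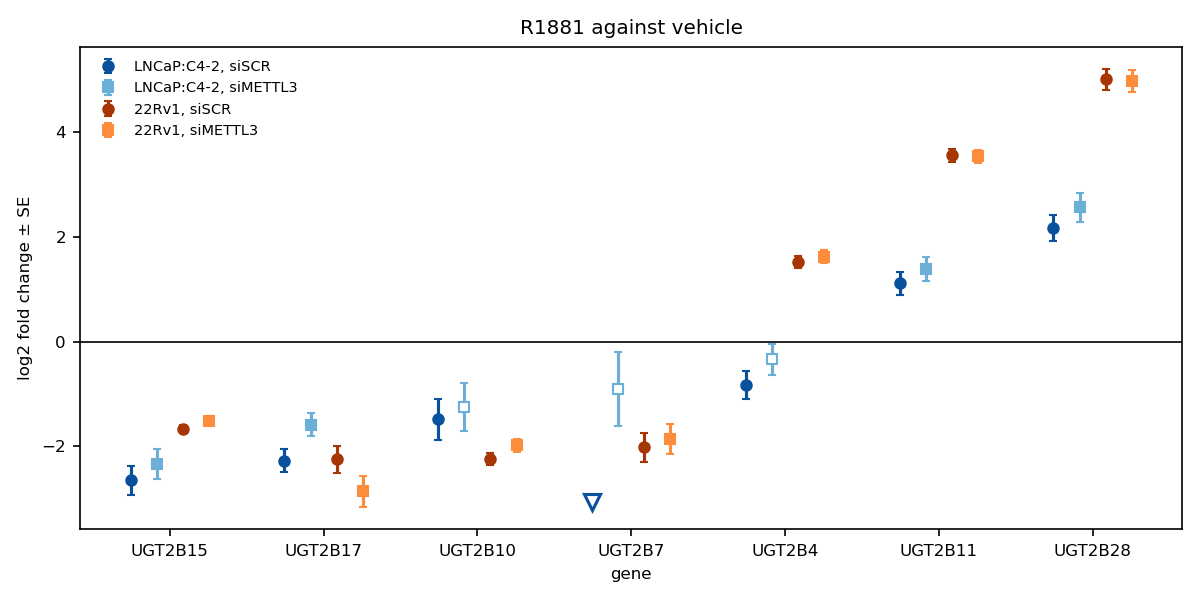
Log2 fold change of R1881 against vehicle (vertical axis) for each gene, with SE bars, in LNCaP:C4-2 (blue) and 22Rv1 (orange and brown), under siSCR (circles) and siMETTL3 (squares). Filled points passed both thresholds, open points did not, and the open triangle is the bound for UGT2B7 in LNCaP:C4-2 (at least 3.07 lower); the other values run from -2.86 for UGT2B17 to 5.00 for UGT2B28.

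The response under siMETTL3 was measured in 12 other libraries. In 22Rv1 all 7 members were called again in the same direction (9.29% of genes were called lower and 4.18% higher). Their log2 fold changes were -1.51 for UGT2B15, -2.86 for UGT2B17, -1.98 for UGT2B10, -1.86 for UGT2B7, 1.62 for UGT2B4, 3.53 for UGT2B11 and 4.97 for UGT2B28. In LNCaP:C4-2, UGT2B15 and UGT2B17 fell (log2 fold change -2.34 and -1.59) and UGT2B11 and UGT2B28 rose (1.39 and 2.56), against 5.54% of genes called lower and 5.09% higher. UGT2B10 at -1.25 (edgeR adjusted p 0.0778), UGT2B7 at -0.91 (0.431) and UGT2B4 at -0.34 (0.472) did not pass there. Those 3 genes had at most 66 counts in any LNCaP:C4-2 siMETTL3 library, and UGT2B10 passed without siMETTL3 vehicle replicate 1 or siMETTL3 R1881 replicate 3 (edgeR adjusted p 0.0445 and 0.0238).

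Whether R1881 acted differently in the 2 lines was tested as a difference of the siSCR responses in a fit of all 24 libraries. The difference, 22Rv1 minus LNCaP:C4-2 on the log2 scale, passed an edgeR adjusted p of 0.05 for 5 of the 7 members, beside 16.8% of all genes. It was 2.82 for UGT2B28 (SE 0.37, edgeR adjusted p 3.39e-06), 2.44 for UGT2B11 (SE 0.27; 2.59e-07) and 2.34 for UGT2B4 (SE 0.26; 2.2e-07). For UGT2B15 it was 0.97 (SE 0.29, edgeR adjusted p 0.019), a smaller fall in 22Rv1. That UGT2B15 call was lost without siSCR vehicle replicate 3 or siSCR R1881 replicate 1 of LNCaP:C4-2 and without siSCR vehicle replicate 1 or siSCR R1881 replicate 3 of 22Rv1 (edgeR adjusted p 0.0546 to 0.0887), and with DESeq2 (0.92; adjusted p 0.0761). UGT2B7 also passed (edgeR adjusted p 0.00603), with a fitted difference that rests on its near-zero counts in LNCaP:C4-2. UGT2B17 (0.02) and UGT2B10 (-0.77; edgeR adjusted p 0.168) did not pass, and UGT2B10 passed without siSCR R1881 replicate 1 of LNCaP:C4-2 (-1.23; edgeR adjusted p 0.00757).

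Along the chromosome, the 4 genes whose start sites come first from the low-coordinate end, at 31, 133, 279 and 514 kb into the cluster, were those lowered by R1881 in both lines. The start sites of UGT2B11 and UGT2B28, which were raised in both, follow at 678 and 743 kb. UGT2B4 starts at 989 kb, at the far end, and was the member with opposite directions. Strand did not separate the directions, since each of the 2 groups holds genes of both strands.

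**Figure D3:**
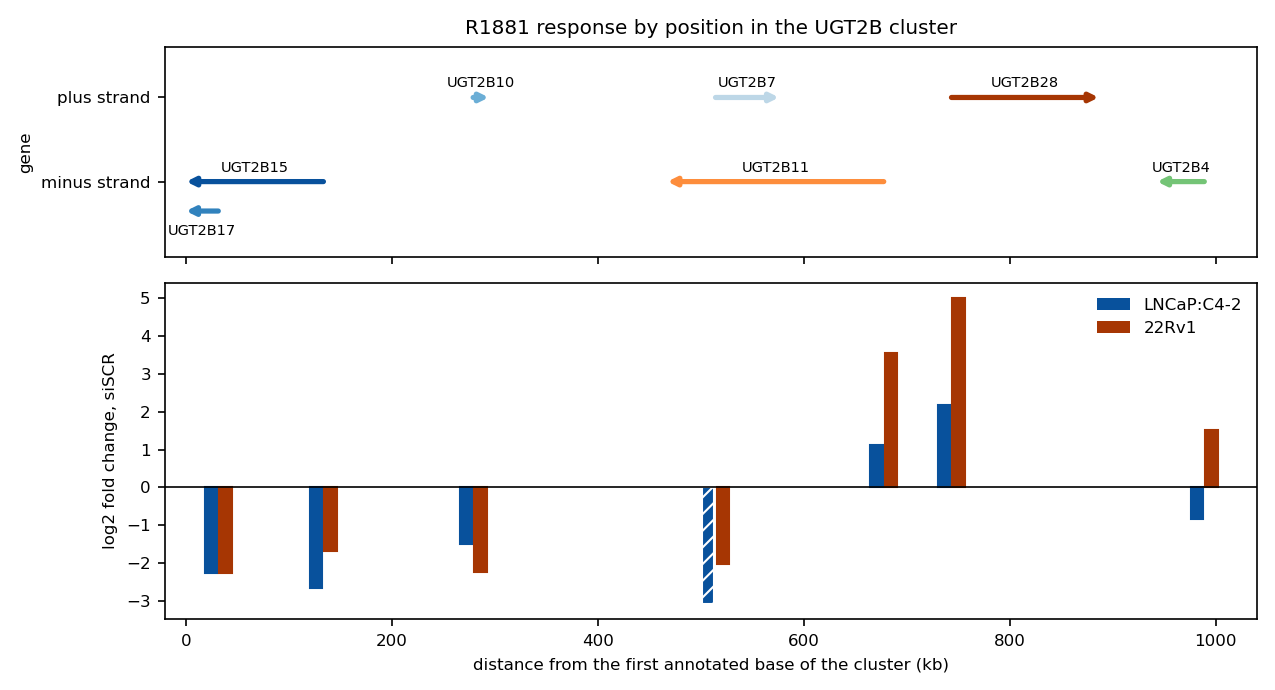
Upper panel, the 7 genes drawn to scale as arrows in the direction of transcription, with distance from the first annotated base of the cluster in kb; lower panel, bars at each start site for the log2 fold change with R1881 under siSCR in LNCaP:C4-2 (blue) and 22Rv1 (brown). The hatched bar is the bound for UGT2B7 (at least 3.07 lower); bars at 31 to 514 kb point down, those at 678 and 743 kb up, and those at 989 kb both ways.

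Of 65 other genes annotated in the cluster or within 500000 bases of its ends, 11 passed the filter on low counts in 22Rv1 and 5 in LNCaP:C4-2. With R1881 under siSCR, 4 of the 11 were called higher and 5 lower in 22Rv1 (4.19% and 9.64% of all genes). In LNCaP:C4-2, 3 of the 5 were called higher and 0 lower (7.39% and 7.72% of all genes). The pseudogenes UGT2B24P and UGT2B25P rose in 22Rv1 (at least 23.8-fold and 18.6-fold higher, with vehicle counts at or under 3). UGT2B24P was also higher in LNCaP:C4-2 (at least 6.08-fold). UGT2B27P fell in 22Rv1 (log2 fold change -2.05, SE 0.20), and TMPRSS11E, a serine protease gene, rose in LNCaP:C4-2 (2.27, SE 0.28). Whether the pseudogenes took reads of the members, their paralogs, was not tested.

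Promoter sequences from RefSeq (GRCh38.p14) were at hand for 4 members, UGT2B15, UGT2B10, UGT2B7 and UGT2B11, and are shown because UGT2B10 and UGT2B11 moved in opposite directions with R1881. Each line gives the 250 bases before the RefSeq start site, 5′ to 3′ on the gene's own strand, with capitals for matches to the forkhead letters TGTTTAC on either strand, and likewise for the variant TATTTAC. The intervals are chr4:68815744-68815993 (plus strand), chr4:69214749-69214998 (minus), chr4:68670653-68670902 (minus) and chr4:69096224-69096473 (plus). For UGT2B7 the RefSeq start lies 45.1 kb downstream of the start in the files' annotation, and for the others within 24 bases of it.
UGT2B10: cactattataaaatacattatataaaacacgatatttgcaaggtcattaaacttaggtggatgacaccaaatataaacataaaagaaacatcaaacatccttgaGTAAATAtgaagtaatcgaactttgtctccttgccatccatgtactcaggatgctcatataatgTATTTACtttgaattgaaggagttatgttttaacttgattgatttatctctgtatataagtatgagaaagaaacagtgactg
UGT2B11: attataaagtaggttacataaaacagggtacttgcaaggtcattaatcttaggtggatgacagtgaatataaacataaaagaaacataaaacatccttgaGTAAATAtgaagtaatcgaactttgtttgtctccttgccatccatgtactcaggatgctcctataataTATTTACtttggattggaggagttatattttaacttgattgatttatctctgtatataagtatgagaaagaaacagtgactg
UGT2B15: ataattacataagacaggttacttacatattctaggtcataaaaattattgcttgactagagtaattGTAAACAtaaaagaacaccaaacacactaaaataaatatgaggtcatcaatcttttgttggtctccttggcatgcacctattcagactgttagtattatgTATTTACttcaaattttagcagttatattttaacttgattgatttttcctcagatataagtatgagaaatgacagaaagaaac
UGT2B7: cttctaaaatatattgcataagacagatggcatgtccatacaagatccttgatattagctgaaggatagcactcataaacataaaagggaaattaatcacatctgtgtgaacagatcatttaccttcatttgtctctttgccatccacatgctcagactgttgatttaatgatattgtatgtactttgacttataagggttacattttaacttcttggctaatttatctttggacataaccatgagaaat
UGT2B10 and UGT2B11 were 90.2% identical over 254 aligned positions, the closest of the 6 pairs. Their responses were opposite, as were those of UGT2B11 and UGT2B15 and of UGT2B11 and UGT2B7. UGT2B15 was 70.1% and 71.3% identical to UGT2B10 and UGT2B11, and UGT2B7 was 58.4% to 63.7% identical to the other 3. TATTTAC, letters bound by forkhead factors such as FOXA1, matched at 2 places each in UGT2B10 (146 to 140 and 82 to 76 bases before the start) and in UGT2B11 (150 to 144 and 82 to 76), and in UGT2B15 at 83 to 77. TGTTTAC matched only in UGT2B15, at 183 to 177. Of all 35116 promoters in the table, 2.39% hold the first of these motifs and 2.98% the second. The letters to be searched were chosen after the sequences had been read.

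The make-up of the UGT2B transcript pool changed with R1881, while its summed level under siSCR overlapped between treatments. The summed level of the 7 genes was 99.9 ± 17.1 CPM per kb (SD, n = 3) in LNCaP:C4-2 siSCR vehicle and 71.8 ± 22.3 with R1881, and the 2 groups overlapped (84.9 to 119 and 46.6 to 89.2). In 22Rv1 siSCR it was 291 ± 43.8 in vehicle and 225 ± 28.4 CPM per kb with R1881, also overlapping (254 to 339 and 207 to 257). Under siMETTL3 the vehicle and R1881 sums overlapped in LNCaP:C4-2 (42.7 to 55.9 and 32.1 to 53.2). They did not overlap in 22Rv1 (199 to 220 and 174 to 197).

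In LNCaP:C4-2 vehicle, UGT2B15 made up 59.1% ± 0.756 (SD, n = 3) of that sum, UGT2B11 17.2%, UGT2B17 13.5% and UGT2B28 4.48%. With R1881 the shares of UGT2B15 and UGT2B17 were 13.1% and 3.96%, and UGT2B11 and UGT2B28 together held 80.1% ± 0.666. In 22Rv1 vehicle, UGT2B15 made up 70.6% ± 1.07, UGT2B10 18.9% and UGT2B4 7.21%. With R1881 the pool was spread over UGT2B11 (30.3% ± 0.793), UGT2B15 (29% ± 1.89) and UGT2B4 (26.8% ± 1.35). Shares within a library do not depend on how the libraries were scaled. The members' levels deviated together from library to library. In 3 of the 8 conditions, a single library held the highest value of 6 members, and in a further 2, LNCaP:C4-2 siMETTL3 R1881 (replicate 3) and 22Rv1 siMETTL3 R1881 (replicate 2), the highest value of all 7. In LNCaP:C4-2 siSCR R1881, replicate 1 held the lowest value of 6 members, and its mitochondrial share was 7.08% against 9.73% and 9.69% in the others.

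**Figure D4:**
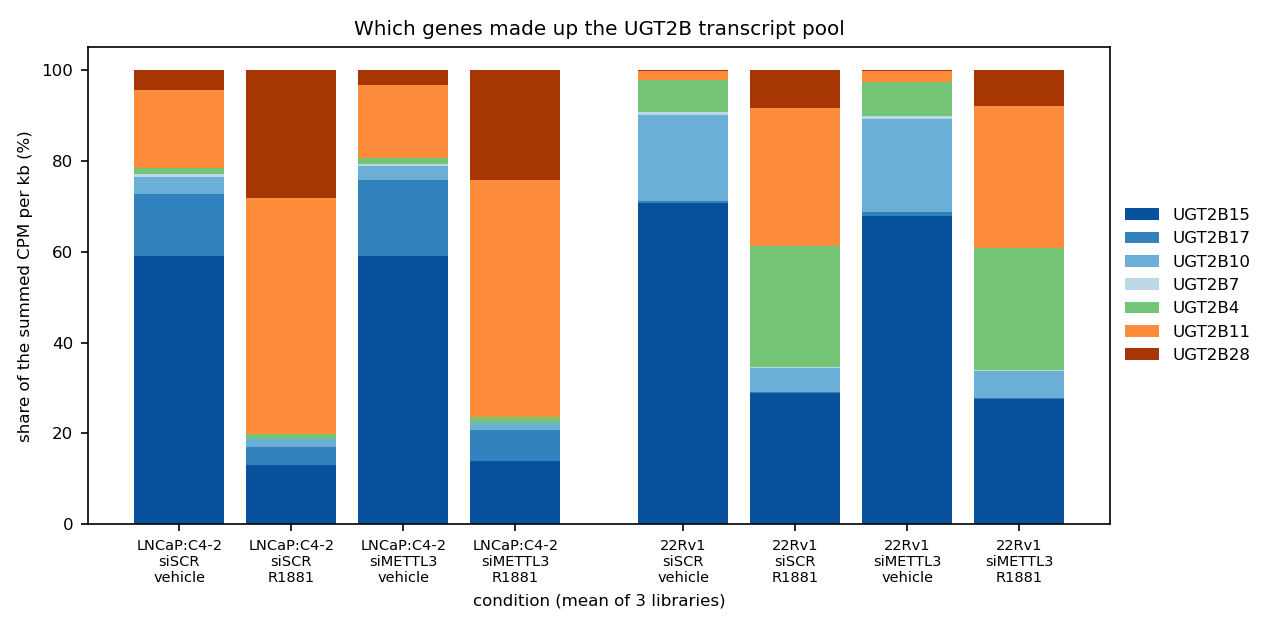
Share of each gene in the summed CPM per kb of the 7 UGT2B genes (vertical axis, percent), as stacked bars of the means of 3 libraries in each of the 8 conditions. UGT2B15 fills 59.1% and 70.6% of the siSCR vehicle bars of LNCaP:C4-2 and 22Rv1, and UGT2B11 with UGT2B28 fills 80.1% of the LNCaP:C4-2 siSCR R1881 bar; in the LNCaP:C4-2 R1881 bars UGT2B17 fills 3.96% under siSCR and 6.77% under siMETTL3.

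The order of the members was read from levels per length. Per kb of exon, LNCaP:C4-2 siSCR vehicle libraries ranked UGT2B15 (59.1 CPM per kb) over UGT2B11 (17.1), UGT2B17 (13.5), UGT2B28 (4.48), UGT2B10 (3.74), UGT2B4 (1.32) and UGT2B7 (0.657). In that order UGT2B11 overlapped UGT2B17 and UGT2B28 overlapped UGT2B10 between libraries, while the other neighbours did not. Within each library, UGT2B11 was still above UGT2B17 and UGT2B28 above UGT2B10. With R1881 the order began with UGT2B11 (37.1) and UGT2B28 (20.3), and UGT2B15 (9.46) came after them. UGT2B11 and UGT2B28 overlapped between libraries, with UGT2B11 the higher within each library. In 22Rv1 siSCR vehicle the order was UGT2B15 (205), UGT2B10 (55), UGT2B4 (21), UGT2B11 (5.78), UGT2B17 (1.9), UGT2B7 (1.35) and UGT2B28 (0.581), and no neighbours overlapped. With R1881, UGT2B11 (68.2), UGT2B15 (64.8) and UGT2B4 (60.5 CPM per kb) overlapped one another in turn, ahead of UGT2B28 (18.8) and UGT2B10 (11.7). The order of those first 3 changed from library to library.

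The lines also differed in which members they expressed before any androgen. In siSCR vehicle, 22Rv1 had more UGT2B4 (16-fold; log2 fold change 4, SE 0.17), UGT2B10 (14.8-fold; 3.88, SE 0.24), UGT2B15 (3.48-fold; 1.80, SE 0.20) and UGT2B7 (2.07-fold; 1.05, SE 0.31). It had less UGT2B28 (7.66-fold), UGT2B17 (7.1-fold) and UGT2B11 (2.96-fold). All 7 differences were called, with edgeR adjusted p between 1.39e-17 and 0.00361, beside 59.2% of all genes, so such a difference is common here. With R1881, 6 of the 7 were called (60.1% of all genes), and UGT2B11 was then 1.84-fold higher in 22Rv1, where it had been lower in vehicle. UGT2B17 stayed 6.99-fold lower, and UGT2B28 did not pass (log2 difference -0.11; edgeR adjusted p 0.632). The size of UGT2B7 with R1881 is a bound, at least 4.29-fold higher in 22Rv1.

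Fewer members were called with METTL3 depletion than with R1881. In LNCaP:C4-2 vehicle all 7 members had negative log2 fold changes with siMETTL3, where the median over all genes was 0.001. Of the 7 members 3 were called, whereas 0.371% of all genes were called lower. In 22Rv1, 0 of the 7 members were called in vehicle (0.14% of genes were called lower) and 0 with R1881 (0.985%). The knockdown comparisons use the same siSCR and siMETTL3 libraries as the R1881 comparisons above.

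In LNCaP:C4-2 vehicle, UGT2B28 held 9.36, 11 and 14.6 CPM with siSCR and 3.68, 3.69 and 5.16 CPM with siMETTL3 (2.81-fold lower; edgeR adjusted p 0.0181). UGT2B11 held 41.6, 35.9 and 49.8 CPM against 16.7, 19.1 and 22.6 CPM (2.21-fold lower; edgeR adjusted p 0.025). UGT2B7 went from 28, 24 and 28 counts to 10, 5 and 2 counts (4.43-fold lower; edgeR adjusted p 0.0495). UGT2B10, UGT2B15, UGT2B4 and UGT2B17 did not pass, with log2 values of -1.28, -1.05, -1.05 and -0.76 and edgeR adjusted p from 0.0571 to 0.112. Their siSCR and siMETTL3 libraries did not overlap either. How many of all genes were also without overlap was not counted, here or in the other knockdown comparisons. Leaving out siSCR vehicle replicate 1, siSCR vehicle replicate 3 or siMETTL3 vehicle replicate 2 left 0 of the 7 called. The UGT2B7 call was also lost without siSCR vehicle replicate 2 (edgeR adjusted p 0.092) or siMETTL3 vehicle replicate 3 (0.126), in a fit of only the 6 libraries (0.0741) and with a replicate block (0.0801).

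With R1881 in LNCaP:C4-2, UGT2B28 alone was called (33.9, 59.4 and 64.8 CPM with siSCR, 20.9, 20.6 and 32 CPM with siMETTL3; 2.15-fold lower; edgeR adjusted p 0.042), beside 0.42% of genes called lower. It was lost without siSCR R1881 replicate 2 or 3 or siMETTL3 R1881 replicate 1 or 2, and without siSCR R1881 replicate 1 there were 4 calls. UGT2B11 at -0.86 (edgeR adjusted p 0.0634) and UGT2B10 at -1.05 (0.157) did not pass, and UGT2B15 was at -0.74, UGT2B4 at -0.57 and UGT2B17 at -0.09. UGT2B7 was at or near the floor in both groups, with 0, 0 and 1 counts against 1, 2 and 6, so no fold is given.

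In 22Rv1 vehicle the log2 values ran from -0.55 (UGT2B15) to -0.05 (UGT2B7), and the siSCR and siMETTL3 libraries of UGT2B15, UGT2B4 (-0.42; edgeR adjusted p 0.122) and UGT2B10 (-0.37; 0.141) did not overlap. UGT2B28 was at -0.35, UGT2B17 at -0.29 and UGT2B11 at -0.25, each with overlap. UGT2B15 had the smallest p of the 7. It held 400.0, 428 and 520.0 CPM with siSCR and 331, 300.0 and 293 CPM with siMETTL3 in vehicle, which did not overlap (1.46-fold lower; log2 fold change -0.55, SE 0.08, edgeR adjusted p 0.00109). With R1881 it held 138, 136 and 152 CPM against 108, 114 and 109 CPM (1.3-fold lower; edgeR adjusted p 0.00583). Both passed the p threshold and stayed under the 1.5-fold requirement. With R1881 the largest change was that of UGT2B17 (-0.91, SE 0.37; 1.88-fold lower; edgeR adjusted p 0.0953), at counts of 4, 11 and 8 under siMETTL3, which did not pass and did not overlap. UGT2B28 (-0.38; edgeR adjusted p 0.0618) did not overlap either, while UGT2B4 (-0.31), UGT2B11 (-0.27), UGT2B10 (-0.11) and UGT2B7 (0.11) did. For UGT2B15 in vehicle the 1.5-fold line was crossed without siSCR vehicle replicate 1 or siMETTL3 vehicle replicate 1 (-0.61 and -0.60).

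**Figure D5:**
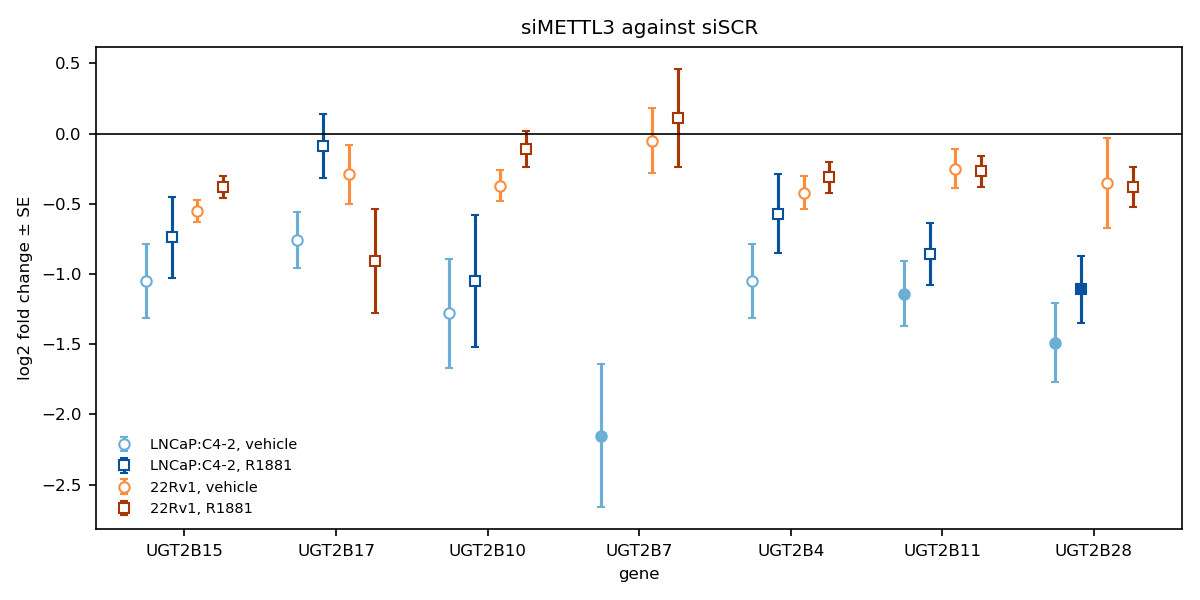
Log2 fold change of siMETTL3 against siSCR (vertical axis) for each gene, with SE bars, in LNCaP:C4-2 (blue) and 22Rv1 (orange and brown), in vehicle (circles) and with R1881 (squares); filled points passed both thresholds and open points did not, and UGT2B7 in LNCaP:C4-2 with R1881 is left out because its counts were at or near the floor. Most points lie below 0, with UGT2B28 at -1.49 and -1.11 in LNCaP:C4-2 and UGT2B15 at -0.55 and -0.38 in 22Rv1.

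Whether METTL3 depletion changed the androgen response was tested with the interaction term in each line. It passed for 0 of the 7 members in LNCaP:C4-2 and for 0 of the 7 in 22Rv1 (edgeR adjusted p 0.29 or more), and for 0.0% and 0.0168% of all genes. In LNCaP:C4-2 edgeR called 0 of 16435 genes for this term, with 2037 at an unadjusted p under 0.05, and DESeq2 called 50. The interaction estimates (difference of the log2 responses, siMETTL3 minus siSCR) were 0.31 (SE 0.39) for UGT2B15, 0.68 (SE 0.31) for UGT2B17, 0.28 (SE 0.32) for UGT2B11 and 0.38 (SE 0.37) for UGT2B28 in LNCaP:C4-2. UGT2B4 was at 0.48 (SE 0.39), UGT2B10 at 0.23 (SE 0.62) and UGT2B7 at a fitted 4.91 that rests on its near-zero counts. All 7 were above 0 in that line (median of all genes 0.002) and none passed, so changes of that size could not be resolved. In 22Rv1 the estimate largest in size was -0.62 (SE 0.43) for UGT2B17, and the others were 0.17 (SE 0.12) for UGT2B15, 0.27 (SE 0.17) for UGT2B10, 0.10 (SE 0.16) for UGT2B4, 0.16 (SE 0.42) for UGT2B7, -0.02 (SE 0.18) for UGT2B11 and -0.03 (SE 0.37) for UGT2B28. The difference between lines in the knockdown effect in vehicle passed for 0 of the 7 members (0.458% of genes), with UGT2B7 at 2.09 (edgeR adjusted p 0.0687) nearest to it and the other 6 between 0.45 (UGT2B17) and 1.13 (UGT2B28).

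The pool's summed level was lower on average under siMETTL3. It was 48.7 ± 6.66 CPM per kb in LNCaP:C4-2 siMETTL3 vehicle against 99.9 ± 17.1 with siSCR, without overlap, and 39.4 ± 11.9 against 71.8 ± 22.3 with R1881, with overlap. In 22Rv1 it was 207 ± 11.3 against 291 ± 43.8 in vehicle and 183 ± 12.3 against 225 ± 28.4 with R1881 (SD, n = 3 throughout), without overlap in either. UGT2B15 made up 59.1% of the sum in LNCaP:C4-2 vehicle under either siRNA, and 67.9% against 70.6% in 22Rv1 vehicle. UGT2B11 and UGT2B28 together held 76.3% ± 2.98 of the LNCaP:C4-2 pool with R1881 under siMETTL3, against 80.1% ± 0.666 under siSCR. Within that pool the share of UGT2B17 was 6.77% (5.84 to 7.98) under siMETTL3 against 3.96% (3.56 to 4.35), and that of UGT2B28 24.1% (23.2 to 24.7) against 28.3% (28 to 28.8), neither with overlap. Both also separated in LNCaP:C4-2 vehicle, UGT2B17 at 15.5% to 18.1% against 13.1% to 13.8% and UGT2B28 at 2.99% to 3.56% against 3.74% to 4.97%. In 22Rv1 with R1881 the mean share of UGT2B17 was lower under siMETTL3 (0.114% against 0.182%). Shares of other members separated in some conditions too, how many was not counted, and no share was tested.

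The members' steps in the pathway need UDP-glucuronic acid, which UGDH makes from UDP-glucose and SLC35D1 carries into the endoplasmic reticulum. In 22Rv1, UGDH rose from 238 to 464 CPM with R1881 (log2 fold change 0.95, SE 0.07) and SLC35D1 fell from 29.1 to 18 CPM (-0.71, SE 0.09), the 2 called genes of 6 tested (list median 0.21, all genes 0.002). Of all genes in 22Rv1, 4.19% were called higher and 9.64% lower. In LNCaP:C4-2, 0 of 5 tested supply genes were called, and UGDH held 106 and 130 CPM. Among 13 other UDP-glucuronosyltransferases in the files, 4 were tested in 22Rv1 and 1 in LNCaP:C4-2. UGT1A1, the bilirubin-conjugating enzyme, rose in 22Rv1 from 0.246 to 5.92 CPM (log2 fold change 4.53, SE 0.34), while 1 other gene fell. UGT1A1 shares most of its exons with the other UGT1A genes, so its counts are uncertain. UGT8, which makes galactosylceramide, fell in LNCaP:C4-2 from 59.9 to 39.7 CPM (-0.60, SE 0.15).

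Export genes moved in LNCaP:C4-2, where 2 of 4 tested rose and 1 fell with R1881 under siSCR (7.39% and 7.72% of all genes). ABCC4, a transporter of conjugated steroids and other organic anions, rose from 197 to 881 CPM (log2 fold change 2.15, SE 0.14) and ABCC1 from 85.3 to 351 CPM (2.03, SE 0.11), while ABCG2 fell (-2.28, SE 0.48). In 22Rv1, 0 of 6 export and hydrolysis genes were called, and ABCC4 held 14.7 and 16 CPM. Of the androgen metabolism genes, 2 of 11 were called higher and 0 lower in LNCaP:C4-2, and 1 of 16 higher and 2 lower in 22Rv1. The 22Rv1 counts were near the shares of all genes there (4.19% higher and 9.64% lower). CYP11A1, which starts steroid synthesis from cholesterol, rose in LNCaP:C4-2 from 0.542 to 18.9 CPM (5.10, SE 0.42), as did HSD17B11 (0.83, SE 0.15). AKR1C2, which reduces dihydrotestosterone to androstanediol, rose in 22Rv1 from 365 to 571 CPM (0.63, SE 0.07), and the sulphotransferases SULT1E1 and SULT2B1 fell (-3.25, SE 0.28, and -1.10, SE 0.36).

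Of the transcription factors reported to act on UGT2B genes, 1 of 7 tested was called higher with R1881 in LNCaP:C4-2 (PPARA, 0.95, SE 0.17), beside 7.39% of all genes. In 22Rv1, 2 of 10 were called higher and 1 lower, beside 4.19% and 9.64% of all genes. The nuclear receptors HNF4A (0.69, SE 0.25) and NR1I2 (0.74, SE 0.27) rose and NR1H4 fell (-1.14, SE 0.29) in 22Rv1, each at a low level (0.973 to 3.4 CPM). FOXA1, a forkhead factor, held 604 and 499 CPM in LNCaP:C4-2 siSCR with vehicle and R1881, and 437 and 377 CPM in 22Rv1. Under siMETTL3 in vehicle, 0 genes of these 5 lists were called in either line, and with R1881 UGT1A1 (-1.07, SE 0.23) was called lower and HSD17B14 (0.66, SE 0.19) and SULT1E1 (1.07, SE 0.36) higher in 22Rv1.

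Hepatocyte and enterocyte genes belong to tissues where the UGT2B genes are also strongly expressed. With R1881 under siSCR, 3 of 4 tested hepatocyte markers were called lower and 0 higher in 22Rv1 (9.64% and 4.19% of all genes). In LNCaP:C4-2, 2 of 5 were called lower and 1 higher (7.72% and 7.39% of all genes). Under siMETTL3 in 22Rv1, APOA1 was called higher with R1881 (log2 fold change 0.92, SE 0.29) and 3 of 4 lower (4.18% and 9.29% of all genes). The 2 tested enterocyte markers were called lower in both lines. SI in 22Rv1 and VIL1 in LNCaP:C4-2 were at or under 3 counts in every siSCR R1881 library, so a call there could only be lower. The 8 hepatocyte markers summed to 728 to 991 CPM in 22Rv1 siSCR vehicle and 66 to 85 CPM with R1881, mostly ALB (829 and 73.1 CPM on average), with CYP3A4 and CYP8B1 at or under 3 counts in every library. In LNCaP:C4-2 the same sum was 7.78 to 8.96 CPM and 3.14 to 3.68 CPM. Under siMETTL3 the 22Rv1 sums were 736 to 768 and 101 to 122 CPM. The 5 enterocyte markers summed to 119 to 145 and 39.6 to 47.1 CPM in 22Rv1, and to 15.5 to 17.2 and 0.422 to 0.948 CPM in LNCaP:C4-2, with FABP2 and APOB at or under 3 counts in every library. Fibroblast markers (4) summed to 41.3 to 74.3 CPM in LNCaP:C4-2 and 15.3 to 29.8 CPM in 22Rv1, leukocyte markers (3) to at most 1.62 CPM and endothelial markers (3) to at most 12.6 CPM. In LNCaP:C4-2 vehicle, where members were called with METTL3 depletion, the enterocyte sum was 15.5 to 17.2 CPM with siSCR and 10.6 to 14.6 CPM with siMETTL3, and the hepatocyte sum 7.78 to 8.96 and 6.25 to 7.8 CPM. Of the marker genes there, the hepatocyte gene TTR (log2 fold change -2.14, SE 0.40, edgeR adjusted p 0.0181), which was also the gene most like UGT2B4 in that line (r 0.945), and the leukocyte gene PTPRC (-2.68, SE 0.45, edgeR adjusted p 0.0181) were called lower, both named after their values were seen. Of the 5 hepatocyte markers tested there, 3 lay above 0 and 2 below (median log2 fold change 0.06). Of the 2 enterocyte markers, VIL1 was at 1.10 and SI at -0.49, and neither was called. The part of these cell type genes in the UGT2B results was not tested.

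Across the 12 libraries of a line, the members fell into the same sets as their responses. On log2(CPM + 0.5), Pearson's r in LNCaP:C4-2 was 0.983 between UGT2B15 and UGT2B17 and 0.972 between UGT2B11 and UGT2B28. In 22Rv1, r was 0.982 between UGT2B15 and UGT2B10, 0.997 between UGT2B11 and UGT2B28 and 0.981 between UGT2B4 and UGT2B11. UGT2B4 went with UGT2B10 in LNCaP:C4-2 (0.836) and against it in 22Rv1 (-0.892). These libraries share their 4 conditions, so r also holds the differences between conditions and carries no test. Among 14815 other genes in LNCaP:C4-2, those most like the summed CPM of the 7 members were MRPL32 (0.96), EFTUD2 (0.96), ADSS2 (0.959), ZC3H8 (0.958) and CCT2 (0.955). Over all 24 libraries (17222 genes), which also differ by line, they were ZNF326 (0.977), ZNF33B (0.975), DHX15 (0.974), ENSG00000256304 (0.968) and SRSF10 (0.968). The genes most like single members were looked up after those values had been seen. In the 12 LNCaP:C4-2 libraries, those most like UGT2B15 were PCBD2 (0.99) and MAP4K4 (0.986), and PCBD2, PLD1 and SLC12A2 were among the closest 5 of both UGT2B15 and UGT2B17. DPP4 and PITRM1 were among the closest 5 of both UGT2B11 and UGT2B28 there. In 22Rv1 (15905 genes) the closest to UGT2B11 was GCLC (0.998), and RGS2 and CNN3 were among the closest 5 of both UGT2B11 and UGT2B28.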

How the data were processed

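RNA-seq was analysed in 24 libraries of LNCaP:C4-2 and 22Rv1 cells. The deposited values are raw counts per gene, which the authors made by trimming with Trim Galore and cutadapt, checking with FastQC, aligning with STAR (version not given in the sources used here) and counting with featureCounts v1.5.0 on GRCh38 with the annotation of Ensembl release 83, without strand. No reads were reprocessed. Genes with sufficient counts (edgeR's filterByExpr, minimum count 10, minimum total 15) were tested with edgeR 4.0.16 in R 4.3.3, using the quasi-likelihood test, TMM factors and 1 mean per condition. Each line was fitted on its 12 libraries (8 residual degrees of freedom), and the line comparisons on all 24 (16). P-values were adjusted by Benjamini-Hochberg over all genes tested, 16435 in LNCaP:C4-2, 17865 in 22Rv1 and 19437 in both. All 7 members passed the filter in each fit. SEs were taken as the log2 fold change over the square root of F. Printed CPM use TMM factors of all 24 libraries, and CPM per kb the exonic lengths in the files. A floor of 3 counts per library was worth 0.126 to 0.194 CPM, and it covers counting error only. At most 21306019 counts per library limit what the scarce members can show.

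Samples were grouped by their labels, and the treatment times came from the study's methods. Symbols were found for 56558 of 60675 gene IDs. The fits were tested on simulated data first. The members and gene lists were chosen with earlier results of these data known. All members were measured in every comparison. Genes of the pathway lists and of the neighbourhood were named where a comparison called them and 1 condition reached a mean of 1 CPM, or as the best known gene for a role, and the similar genes by Pearson's r. Promoters were RefSeq sequences on GRCh38.p14, and UGT2B4, UGT2B17 and UGT2B28 were not in that table. Alternatives were RLE factors, library size alone, no filter or a stricter one, a replicate block, DESeq2 1.42.0, fits of only the compared libraries, other call thresholds and leaving out each library in turn. Values of some transcription factors and their motifs are not reported here.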

Additional observations from a re-analysis of the deposited data

Results flagged for a closer look

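A test of the difference between the cell lines in the R1881 response under siSCR (22Rv1 minus LNCaP:C4-2, log2 scale, edgeR quasi-likelihood fit of 24 libraries, 16.8% of genes past an adjusted p of 0.05) picked out 5 of the 7 members. The difference was 2.82 for UGT2B28, which rose in both lines and further in 22Rv1. It was 2.44 for UGT2B11, with the same direction in both lines. For UGT2B4 it was 2.34, with a rise in 22Rv1 and a fall in LNCaP:C4-2 at 27 to 69 counts. The call for that fall was lost on leaving out any of 4 libraries (edgeR adjusted p 0.0825 to 0.117). It was also lost with the 1.5-fold threshold inside the edgeR test (adjusted p 0.513). For UGT2B15 it was 0.97, a smaller fall in 22Rv1, a call that was lost with DESeq2 (adjusted p 0.0761) and on leaving out any of 4 libraries (edgeR adjusted p 0.0546 to 0.0887). For UGT2B7 it was 3.81, a fitted value that depends on R1881 counts of 0, 0 and 1 in LNCaP:C4-2 and is no bound.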

How the results depend on the processing

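Over all settings, 194 recounts of called members stayed within 1.5 times the reported count, with 14 above and 10 below. This tally compares how many members were called, not which, and counts of 0 that stayed at 0 are among the 194. With the 1.5-fold threshold inside the test, the R1881 response in LNCaP:C4-2 with siSCR kept 4 of 7 calls, and the knockdown in LNCaP:C4-2 had 0 in vehicle and 0 with R1881. With no filter on low counts, the knockdown in LNCaP:C4-2 had 7 calls in vehicle and 4 with R1881, the interaction in LNCaP:C4-2 had 1 (UGT2B7) and the line difference in the knockdown effect had 4. Without that filter the edgeR adjusted p of UGT2B15 for the knockdown in LNCaP:C4-2 vehicle was 1.58e-13, against 0.0613 with it. DESeq2 gave 1 call for the line difference in the knockdown effect (UGT2B7). It gave 2 for the knockdown in LNCaP:C4-2 with R1881, as did a fit of only the 6 libraries compared. For the knockdown in LNCaP:C4-2 vehicle, DESeq2 gained UGT2B17 (DESeq2 adjusted p 0.0158) and UGT2B4 (0.0296). The fit of only the 6 libraries gained UGT2B10 (edgeR adjusted p 0.0447) and UGT2B15 (0.0321) there and lost UGT2B7 (0.0741). On adjusted p alone, the knockdown in 22Rv1 had 1 call in vehicle and 1 with R1881 (UGT2B15 in both). Over all genes, the deviations of same-numbered libraries from their condition means had a mean r of -0.0173 in LNCaP:C4-2 and -0.01 in 22Rv1. Single pairs ran from -0.337 to 0.195 and from -0.228 to 0.152, so the mean cannot decide whether the numbers pair the samples. With the replicate block the knockdown in LNCaP:C4-2 had 2 calls with R1881 and 4 in vehicle. In vehicle UGT2B7 was lost (edgeR adjusted p 0.0801) and UGT2B15 (0.0213) and UGT2B17 (0.0393) were gained. Among the members, replicate 3 held the highest value of 6, 5, 4 and 7 in the 4 LNCaP:C4-2 conditions, which the mean r over all genes does not show. The shares of all genes called under these settings, and with a library left out, are not given here, so the member counts cannot be set against them. Why these counts moved was not tested.

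Leaving out 1 library in turn, the knockdown calls in LNCaP:C4-2 ran from 0 to 4 in vehicle and 0 to 4 with R1881, those in 22Rv1 vehicle from 0 to 1, the line difference in the knockdown effect from 0 to 1, and that in the R1881 response from 4 to 5. In LNCaP:C4-2 the R1881 calls ran from 6 to 7 with siSCR and from 4 to 5 with siMETTL3, and in 22Rv1 they were 7 throughout.

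The values that changed sign were all of members not called. Under knockdown, leaving out 1 library gave -0.33 to 0.12 for UGT2B17 in LNCaP:C4-2 with R1881, -0.73 to 0.03 for UGT2B28 and -0.19 to 0.09 for UGT2B7 in 22Rv1 vehicle, and -0.21 to 0.02 for UGT2B10 and -0.20 to 0.33 for UGT2B7 in 22Rv1 with R1881. For the interaction it gave -0.41 to 0.60 for UGT2B10 and -0.14 to 0.56 for UGT2B15 in LNCaP:C4-2, and -0.21 to 0.11 for UGT2B11, -0.40 to 0.35 for UGT2B28 and -0.15 to 0.37 for UGT2B7 in 22Rv1 (UGT2B11 was 0.00 with no filter). The level of UGT2B28 with R1881 in 22Rv1 against LNCaP:C4-2 ran from -0.38 to 0.05, and was 0.09 with library size alone. The line difference in the R1881 response of UGT2B17 ran from -0.24 to 0.18, and was -0.04 with RLE size factors and -0.04 with DESeq2.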
